A study of Drosophila melanogaster with 10 samples.

Results

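The subject here is the set of genes that the gene table places on the X chromosome of Drosophila melanogaster, followed by their position along the chromosome and by their signal level after RNA interference against JIL-1. The table lists 2705 genes on the X, of which 2197 are protein coding. A probe set of their own was found for 1873 of them, and 990 of those had a mean log2 signal above 4 on their brightest probe set, judged by the mean of all 10 arrays. These 990 genes, 988 of them protein coding, were tested among 6721 rows in all, which include 4807 genes of the large autosomes (arms 2L, 2R, 3L and 3R) and 41 genes of chromosome 4. The other 883 X-linked genes did not exceed the minimum and carry no result. Just above it lay CG12206, CG43658 and Hk, with means of 4.072, 4.098 and 4.109, and just below it CG42699, Ac13E and CG11398, with means of 3.994, 3.981 and 3.956. Of the tested genes 985 had a mean above 4 in both groups, 3 only after JIL-1 RNAi and 2 only in controls, so the minimum rarely depended on 1 group.

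In male flies the single X is transcribed at a raised rate, which brings its output near that of the paired autosomes. The dosage compensation complex, built from the MSL proteins and the roX RNAs, gathers over active X-linked genes and acetylates histone H4 there. JIL-1 is a kinase that phosphorylates histone H3, binds along all chromosomes and is enriched on the male X. S2 cells are an embryonic line of male character with features of macrophage-like blood cells.

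Total RNA from S2 cells was measured on Affymetrix arrays after treatment of cultures with 10 µg of double-stranded RNA for 1 h without serum, a split on day 3 and harvest on day 7. JIL-1 RNAi was given to 5 cultures, replicates 1 and 2 of batch A (RNA labelled JIl-1 5prime) and replicates 3, 4 and 5 of batch B (labelled JIl-1 3prime). Control RNAi was given to 5 cultures, replicates 1, 2 and 3 of batch A (against GST) and replicates 4 and 5 of batch B (against EGFP). All cultures are of 1 cell line and called biological replicates in the series' design. Since both the JIL-1 and the control sequences changed with the batch, batch and targeting sequence cannot be told apart.

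The target gene JIL-1, on arm 3L, had log2 signals of 4.348 and 4.351 in the batch A JIL-1 RNAi samples against 5.791, 5.950 and 5.658 in their controls. In batch B its signals were 5.665, 5.777 and 5.844 after JIL-1 RNAi against 7.532 and 7.338 in controls. Every JIL-1 RNAi sample lay below every control of its batch, with a log2 change of -1.56 (SE 0.077, limma adjusted p = 5.32e-07). On every array between 62.0% and 62.8% of probe sets lay under 4, and the median of the tested rows was between 9.22 and 9.42. All 10 blood-cell markers examined were among the tested genes, with mean signals between 8.35 and 13.9. Of these NimC1, Sr-CI, drpr and Hml fell, with log2 changes of -2.14, -1.30, -0.75 and -0.29, and ush rose, with 0.27; their part in the X-linked results was not tested. Of the defining markers of other tissues, none of 4 for fat body, 4 for follicle cells and 2 for gut were tested, being under the minimum or without a probe set of their own. By contrast 1 of 4 for muscle (bt), 2 of 5 for neurons and glia (elav and moody) and 1 of 5 for germ line (topi) were tested, of which moody, itself X-linked, rose with 0.52 (limma adjusted p = 0.000206) and topi with 0.43 (0.0361).

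X-linked genes fell more often than they rose after JIL-1 RNAi. Of the 990 genes, 137 rose and 196 fell in the fit over both batches (limma with batch as a term, Benjamini-Hochberg adjusted p under 0.05 over all 6721 rows). These counts are 13.8% and 19.8% of the X, where rises made up 20.8% and falls 14.9% of all rows tested. On the large autosomes the order was opposite, with 23.1% rising and 13.7% falling. X-linked genes had a median change of -0.0489 and autosomal genes one of 0.0709, which left the X lower by a log2 gap of -0.1198, and 58.3% of X-linked against 36.8% of autosomal genes had a change below 0. Without JIL-1 RNAi replicate 2, 91 X-linked genes rose. These are relative levels in normalised RNA of whole cultures, so less RNA per cell and fewer cells holding it cannot be told apart.

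Both batches showed the gap. In batch A 102 X-linked genes rose and 126 fell, where 17.3% of all rows rose and 10.9% fell. X-linked genes there had a median of -0.0153, autosomal genes one of 0.0987, and the gap was -0.114. In batch B 52 rose and 128 fell, against 7.44% and 10.2% of all rows, with medians of -0.0623 and 0.0296 and a gap of -0.0919. The X median of batch A depended on 1 library: it was 0.0087 without control replicate 3. Counts within a batch also moved with single libraries. In batch A rises were 65 without JIL-1 RNAi replicate 1 or 2, and falls were 72 without replicate 2. In batch B falls were 50 without control replicate 5, 56 without control replicate 4, 71 without JIL-1 RNAi replicate 4 and 85 without replicate 5, while rises were 17 and 31 without control replicates 5 and 4.

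The gap was present in every JIL-1 RNAi culture. Setting each JIL-1 RNAi sample against the controls of its batch gave an X median minus autosomal median of -0.1042 and -0.1198 in batch A and of -0.0766, -0.0924 and -0.0918 in batch B. Each control set against the other controls of its batch gave -0.022, 0.015 and 0.0036 in batch A and -0.001 and 0.001 in batch B. With 2 controls in batch B, these 2 values are the same difference with opposite signs, so they are not separate values. The 2 groups did not overlap, but the JIL-1 RNAi values of a batch share the same controls, so they are not separate either. Controls were set against one another in batch A too, so their deviations balance for each gene. Control cultures of batch B and batch A differed from one another too: the batch B minus batch A median was 0.0285 for X-linked and 0.1243 for autosomal genes, a gap of -0.0958, about as wide as that of JIL-1 RNAi in batch B. Each gap within a batch was taken against controls of that same batch. Whether a like difference between cultures has a part in the JIL-1 RNAi gap was not tested.

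Most X-linked changes were small. Only 35 falls and 21 rises reached 1.5-fold, 3.54% and 2.12% of the X, against 5.07% and 1.93% of all rows tested. Falls of 2-fold or more numbered 15 and rises 6, against 2.32% and 0.387% of all rows. Among X-linked genes that fell, the median change was -0.323, compared with -0.452 among autosomal genes that fell.

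Changes of X-linked genes in the batches ran together. Across the 990 genes the changes in batch A and batch B, which share no sample, had a Pearson r of 0.738 and a Spearman rho of 0.66, and 72.6% of genes had the same sign in both; the autosomal values were 0.783, 0.668 and 75.3%. Genes share arrays, so they are not independent points. Passing in each batch alone were 38 rises (3.84% of the X, against 4.76% of all rows) and 74 falls (7.47%, against 6.87%), and no gene passed in opposite directions. In 177 X-linked genes (17.9%, against 13.4% of all rows) every JIL-1 RNAi sample lay below every control of its batch in both batches, and in 110 (11.1%, against 18.2%) every one lay above.

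Position along the X was examined in 10 segments of gene order, each with 99 genes, counted from the end away from the centromere. The median change of segments 1 to 10 was -0.0785, -0.0401, -0.0401, -0.0475, -0.0631, 0.0058, -0.0270, -0.0870, -0.0722 and -0.0182. Segment 6 was thus the only one above 0, and it was -0.0103 with arrays shifted to a common median and -0.0268 without control replicate 2. Leaving out 1 library moved other medians by over 1.5 times without turning their sign, each here at its farthest. Segment 2 was -0.0122 without JIL-1 RNAi replicate 4, segment 3 was -0.0141 without JIL-1 RNAi replicate 5, and segment 5 was -0.0296 without JIL-1 RNAi replicate 2. Segment 4 was -0.0752 and segment 10 -0.0429 without JIL-1 RNAi replicate 1, and segment 7 -0.0100 without control replicate 4. The 40 segments of the large autosomal arms ran between -0.0102 and 0.1235, and 1 of them lay below 0. Falls outnumbered rises in 8 X segments and in 3 of the 40 autosomal segments. Falls were between 15.2% and 25.3% of a segment on the X, compared with between 6.21% and 22.4% on the autosomes, so single segments of the chromosome sets overlapped in that share.

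The gap was present along the whole order of X-linked genes in every JIL-1 RNAi sample. In each of the 5 JIL-1 RNAi samples all 10 X segments had a median below the autosomal median of that sample. Among controls this held for 9, 4 and 6 segments in replicates 1, 2 and 3 of batch A and for 5 in each of batch B. Relative to that median the segments lay between -0.1961 and -0.0279 over the JIL-1 RNAi samples and between -0.0577 and 0.0627 over the controls. Within each of the 10 segments every JIL-1 RNAi value was below every control value. The 2 control values of batch B again mirror each other, and the JIL-1 RNAi values of a batch again share their controls. The spread was closest in segment 7, whose highest JIL-1 RNAi value was -0.0542 and whose lowest control value was -0.0451. It was widest apart in segment 8, at -0.11 and -0.0385.

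**Figure D1:**
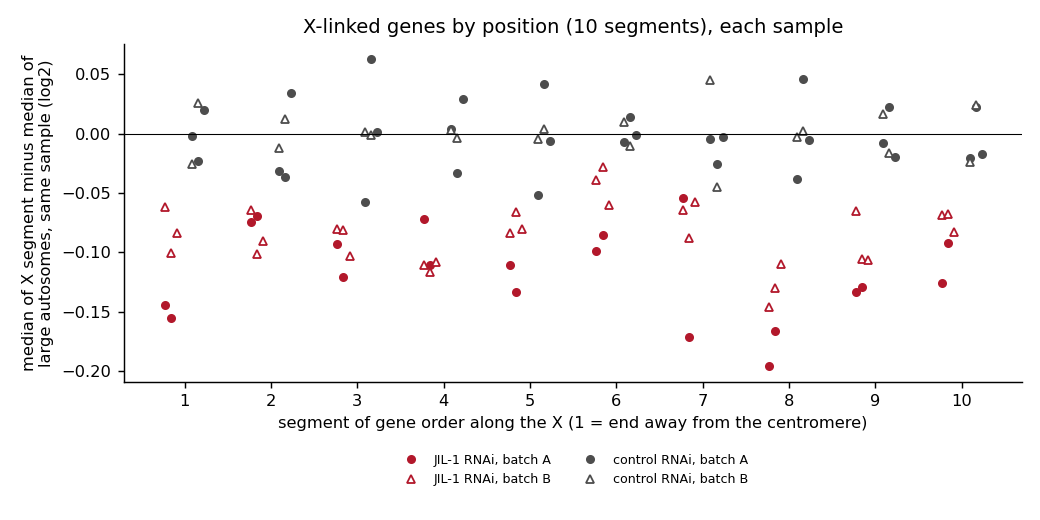
Each point is 1 sample's median change over the 99 genes of an X segment minus the median of the large autosomes in the same sample (log2, vertical axis), by segment of gene order (horizontal axis). JIL-1 RNAi samples (red, left) lie between -0.1961 and -0.0279 and below every control (grey, right) of the same segment, where controls were set against the other controls of their batch. The 2 controls of batch B mirror each other by construction.

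The order of the segments was not fixed between batches. In batch A their medians ran between -0.0766 (segment 8) and 0.0214 (segment 2), and in batch B between -0.0864 (segment 9) and -0.0321 (segment 6). The 10 pairs of medians had an r of 0.543, a description over segments that share the arrays. Segment 8, with 25 falls and 10 rises, had medians of -0.0766 and -0.0854 in batches A and B, and segment 6, with 18 of each, had 0.0142 and -0.0321. Segment 2 had the most rises, 20, beside 18 falls. Segment 4 had the fewest rises, 8, beside 19 falls.

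Changes of neighbouring genes were weakly correlated. Over the 989 adjacent pairs of tested X-linked genes the Pearson r of their changes was 0.0773, compared with 0.0786 to 0.192 on the autosomal arms, and the Spearman rho was 0.0927, compared with 0.0678 to 0.0852. The X was thus lowest by r and highest by rho. Its longest run of adjacent changes below 0 held 18 genes, against 6 to 11 on the arms, where fewer changes were below 0. Both genes fell in 48 pairs, both rose in 24 and the pair moved in opposite directions in 40. On the arms, with 1072 to 1444 pairs each, those counts were 29 to 44, 63 to 103 and 61 to 88. The longest run of adjacent falls on the X held 5 genes, as on 2L, while the other arms had runs of up to 4. It lay in segment 8 with Cyp1, a cyclophilin, CG9917, CG32579, CalpC, a calpain, and CG9921, with changes between -1.08 and -0.16. CG32579 and CalpC overlap on the chromosome, so their probe sets may share signal. The runs of 4 falls were O-fut2 (a protein O-fucosyltransferase), CG14777, pck and CG14780 in segment 1, and Upf1 (of nonsense-mediated decay), Sclp, Pdzd8 and cac in segment 6.

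Other features of the genes divided the X modestly. Genes in the long class of gene length, split into 3 classes of 330, had a median change of -0.0072 with 59 rises and 51 falls. The middle and short classes had medians of -0.0726 (39 rises, 71 falls) and -0.0519 (39 rises, 74 falls). On the autosomes the long class had the lowest median, 0.0513, against 0.0802 and 0.0773. That order did not hold in batch B, where the long, middle and short classes had autosomal medians of 0.0564, 0.0405 and 0.0146. On the X those classes had medians of 0.0121, -0.0913 and -0.086 in batch B. In batch A they had -0.0021, -0.0373 and -0.0097, so long and short X-linked genes were close in that batch. The 2 roX genes encode the RNAs of the dosage compensation complex. Genes nearest to either of them had a median of -0.012 (59 rises, 55 falls). At middle distance the median was -0.0564 (35 rises, 67 falls), and far away it was -0.0619 (43 rises, 74 falls). Rises were 17.9%, 10.6% and 13.0% and falls 16.7%, 20.3% and 22.4% from near to far, against 20.8% and 14.9% of all rows. Genes that overlap another gene had a median of -0.0388 and the rest -0.0592. None of these differences was tested.

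Calls on the X followed signal level. The genes were split by mean signal into a lowest, a middle and a highest class of 330 each, at 8.22 and 9.91 on the log2 scale, with signal depending on the probes as well as on the transcript. In the highest class 25 genes rose and 87 fell (7.58% and 26.4%). In the middle class 43 rose and 62 fell (13.0% and 18.8%), and in the lowest 69 rose and 47 fell (20.9% and 14.2%). Without JIL-1 RNAi replicate 1 there were 28 rises in the middle class and 45 in the lowest, and without replicate 2 there were 27 and 44. By batch, the lowest class of the X had 51 rises and 33 falls in batch A, and 24 and 35 in batch B. Of all rows 17.3% rose and 10.9% fell in batch A, and 7.44% and 10.2% in batch B. Rises thus outnumbered falls in that class only in batch A. On the autosomes the shares over both batches did not run as on the X. Rises were 19.0%, 27.1% and 23.8% and falls 14.6%, 11.5% and 15.2% in the highest, middle and lowest class. Autosomal rises were thus also least frequent in the highest class. Precision also differed between classes, with a median SE of 0.063, 0.074 and 0.097 in the highest, middle and lowest class of the X, so a change of a given size passed more readily in the highest class.

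**Figure D2:**
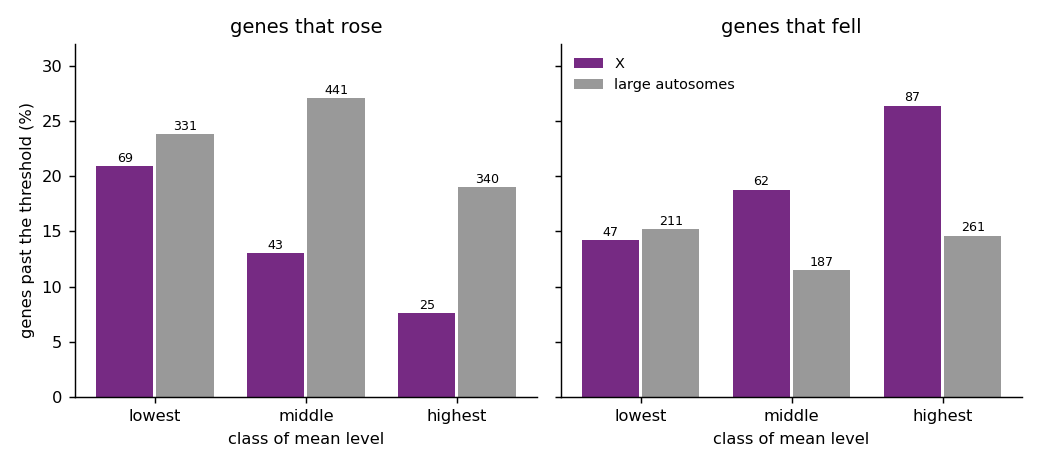
Bars give the percentage of genes past the threshold (vertical axis, from 0) in each class of mean level (horizontal axis), for rises (left panel) and falls (right panel), with the number of genes above each bar. On the X (purple) rises were 69, 43 and 25 and falls 47, 62 and 87 from the lowest to the highest class, while autosomal shares (grey) did not follow that order.

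The medians of change followed the counts. They were -0.0069, -0.0373 and -0.076 in the lowest, middle and highest class of the X, and 0.0916, 0.0951 and 0.0408 in the autosomal classes of like level. The lowest class turned above 0 on the X without any 1 of 5 libraries, at most to 0.013 without control replicate 3, and the middle class was -0.0142 without control replicate 4. The gap between X and autosomes was therefore -0.0985, -0.1324 and -0.1168, and the highest class did not have the widest one. In batch A the medians were 0.0453, -0.0126 and -0.0767 on the X from the lowest to the highest class. Autosomal medians fell with level there too, at 0.1476, 0.1363 and 0.0487, and the 3 gaps were -0.1023, -0.1489 and -0.1254. In batch B the medians were -0.0247, -0.0619 and -0.0848 on the X and 0.0258, 0.0482 and 0.0224 on the autosomes. The gaps of batch B were -0.0505, -0.1101 and -0.1072. Within the highest class the median was below 0 in 10 of 10 segments, within the middle class in 8 and within the lowest in 6.

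**Figure D3:**
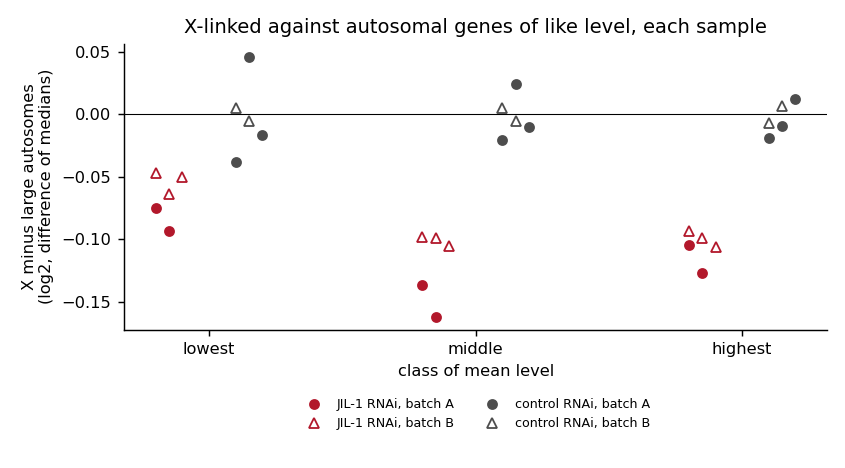
Each point is 1 sample's median change of X-linked genes minus that of autosomal genes in the same class of level (log2, vertical axis), for 3 classes (horizontal axis). All JIL-1 RNAi samples (red, left) lie below all controls (grey, right) in each class, with batch A (filled) lower than batch B (open) in the lowest and middle classes. The 2 controls of batch B mirror each other by construction.

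The spread of changes had the opposite order, with an SD across genes of 0.457, 0.364 and 0.21 from the lowest to the highest class. All 6 rises of 2-fold or more and 10 of the 15 such falls were in the lowest class, and none of either was in the highest. The widest falls that passed in the highest class, named here after their values were seen, were those of Sec22, a SNARE of traffic between endoplasmic reticulum and Golgi, of Alr and of regucalcin. They changed by -0.87, -0.83 and -0.72. Regucalcin, a calcium-binding protein, had an adjusted p of 4.58e-06 (limma) and changes of -0.64 in batch A and -0.80 in batch B. The widest rise in that class was that of Mnr, with log2 signals of 10.323 and 10.474 after JIL-1 RNAi against 9.839, 9.616 and 9.822 in controls of batch A, and 10.744, 10.858 and 10.773 against 10.244 and 10.124 in batch B. Its change was 0.62 (SE 0.062, limma adjusted p = 5.75e-05), and its probe set is of a type that may cross-hybridise.

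The genes that fell furthest were dim or of middle level and lay in many segments. CG34330, known only by its annotation number, was furthest. Its log2 signals were 4.199 and 6.142 after JIL-1 RNAi against 10.332, 10.288 and 10.390 in controls of batch A, and 9.946, 10.130 and 9.786 against 12.329 and 12.317 in batch B. Each JIL-1 RNAi sample was below its controls, and the batch B JIL-1 RNAi samples lay near the batch A controls. The change was -3.77 (SE 0.522, limma adjusted p = 0.000467), -5.17 in batch A and -2.37 in batch B. The difference between batches did not pass (adjusted p = 0.0614).

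CG32625 had log2 signals of 4.909 and 5.214 after JIL-1 RNAi against 7.127, 6.436 and 6.730 in controls of batch A. In batch B they were 5.280, 5.476 and 5.570 against 8.997 and 9.001. JIL-1 RNAi samples of both batches reached like levels while the controls differed, and the change was -2.63 (SE 0.315, limma adjusted p = 0.000195). Vago, which encodes a secreted protein induced by virus infection in flies, had signals of 7.690 and 6.436 against 9.577, 9.519 and 9.683 in batch A and 8.002, 7.560 and 7.345 against 9.804 and 9.755 in batch B, again JIL-1 RNAi first. The groups were apart in both batches, with a change of -2.34 (SE 0.217, limma adjusted p = 3.47e-05). Vago overlaps an antisense gene and CG2076 in the gene table.

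fend had log2 signals of 4.868 and 4.038 after JIL-1 RNAi against 6.582, 7.203 and 6.304 in controls of batch A. In batch B they were 5.961, 5.939 and 5.815 against 7.975 and 8.086. Its change was nearly the same in both batches, -2.24 and -2.13, and -2.18 over both (SE 0.184, limma adjusted p = 1.8e-05). Inx2, an innexin of gap junctions, had signals of 6.179 and 5.313 after JIL-1 RNAi against 7.960, 8.637 and 7.846 in controls of batch A, and 6.509, 6.357 and 6.775 against 8.493 and 8.212 in batch B. All JIL-1 RNAi samples were below 7 and all controls above 7, with a change of -2.10 (SE 0.214, limma adjusted p = 6.3e-05).

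The adjacent genes Pdzd8 and cac both fell, with controls nearer the minimum in batch A than in batch B. cac, a pore-forming subunit of voltage-gated calcium channels, had log2 signals of 3.410 and 3.404 after JIL-1 RNAi against 4.062, 4.893 and 4.526 in controls of batch A, and 3.323, 3.063 and 3.417 against 6.345 and 6.245 in batch B. All 5 JIL-1 RNAi values were under 4, where order is not dependable, so the fall was at least 2.63-fold when values under 4 were set to 4 (limma adjusted p = 0.00643 then). Pdzd8, a protein of endoplasmic reticulum contact sites, had signals of 3.611 and 4.136 against 5.149, 4.861 and 5.075 in batch A and 5.406, 4.983 and 5.124 against 7.410 and 7.351 in batch B. With its 1 value under 4 set to 4, its change was -1.58 (limma adjusted p = 0.000395).

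The remaining falls among the 12 largest were between -1.59 and -1.18. CG42240 had log2 signals between 6.611 and 7.050 after JIL-1 RNAi against 8.106 to 8.574 in controls of batch A and between 5.918 and 6.297 against 7.688 and 7.915 in batch B, a change of -1.59 (limma adjusted p = 9.29e-06). CG15347 changed by -1.28, -1.54 in batch A and -1.03 in batch B (limma adjusted p = 1.24e-05). Both were apart from their controls in each batch. Rph, or rabphilin, an effector of Rab proteins in vesicle traffic, had signals of 7.234 and 7.361 after JIL-1 RNAi against 8.450, 8.303 and 8.393 in controls of batch A, and 8.838, 8.709 and 8.698 against 10.465 and 10.395 in batch B. It fell by 1.08 in batch A and by 1.68 in batch B on the log2 scale, and overlaps ras, which rose by 0.51. CG43658 had 7 of its 10 values under 4, and with those set to 4 its change was -0.81 (limma adjusted p = 0.0173).

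Among rises, CG4586, a predicted acyl-CoA oxidase, was the largest. Its log2 signals were 6.190 and 5.854 after JIL-1 RNAi against 4.643, 4.278 and 4.961 in controls of batch A, and 5.364, 5.279 and 5.628 against 3.986 and 3.669 in batch B. With both values under 4 set to 4 it rose at least 2.66-fold (limma adjusted p = 2.72e-05). CG4872 had signals of 8.982 and 8.753 after JIL-1 RNAi against 7.442, 7.281 and 7.393 in controls of batch A, and 8.492, 8.686 and 8.354 against 7.362 and 7.265 in batch B. The controls of both batches sat close together here, and the change was 1.35 (SE 0.088, limma adjusted p = 3.4e-06). CG4872 overlaps Nprl2.

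CG7860, a predicted asparaginase, had log2 signals of 6.804 and 6.593 after JIL-1 RNAi against 5.641, 5.557 and 5.507 in controls of batch A, and 7.365, 7.337 and 7.088 against 6.006 and 5.735 in batch B. Its change of 1.26 (SE 0.089, limma adjusted p = 5.33e-06) came to 1.13 in batch A and 1.39 in batch B. CG42395, in segment 5, had signals of 5.877 and 6.116 against 4.512, 4.429 and 4.903 in batch A and 6.301, 6.199 and 6.186 against 5.296 and 4.903 in batch B. In both genes every JIL-1 RNAi sample was above every control of its batch, and CG42395 changed by 1.26 (SE 0.114, limma adjusted p = 3.04e-05).

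CG5321, in segment 7, changed by 1.16 (limma adjusted p = 0.000133). fw, or furrowed, a selectin-like cell surface protein, had log2 signals of 5.229 and 5.666 after JIL-1 RNAi against 4.040, 3.916 and 4.213 in controls of batch A, and 7.321, 7.331 and 7.075 against 6.859 and 6.268 in batch B. Its level differed more between batches than between treatments, and its change came to 1.39 in batch A and 0.68 in batch B. The other rises among the 12 largest were those of swa, CG14270, mthl1, Cep164, CG32772 and Adar. Adar, the enzyme that edits adenosine to inosine in RNA, had signals of 6.129 and 6.142 after JIL-1 RNAi against 5.122, 5.475 and 5.298 in controls of batch A, and 5.441, 5.629 and 5.969 against 5.042 and 4.950 in batch B, a change of 0.76 (SE 0.103, limma adjusted p = 0.000424). mthl1, of the methuselah-like receptors, changed by 0.82 and CG14270 by 0.84. swa (swallow, needed to localise bicoid mRNA in the oocyte) and Cep164, a centriole protein, had 3 and 2 control values under 4, and with those set to 4 they changed by 0.55 and 0.41.

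**Figure D4:**
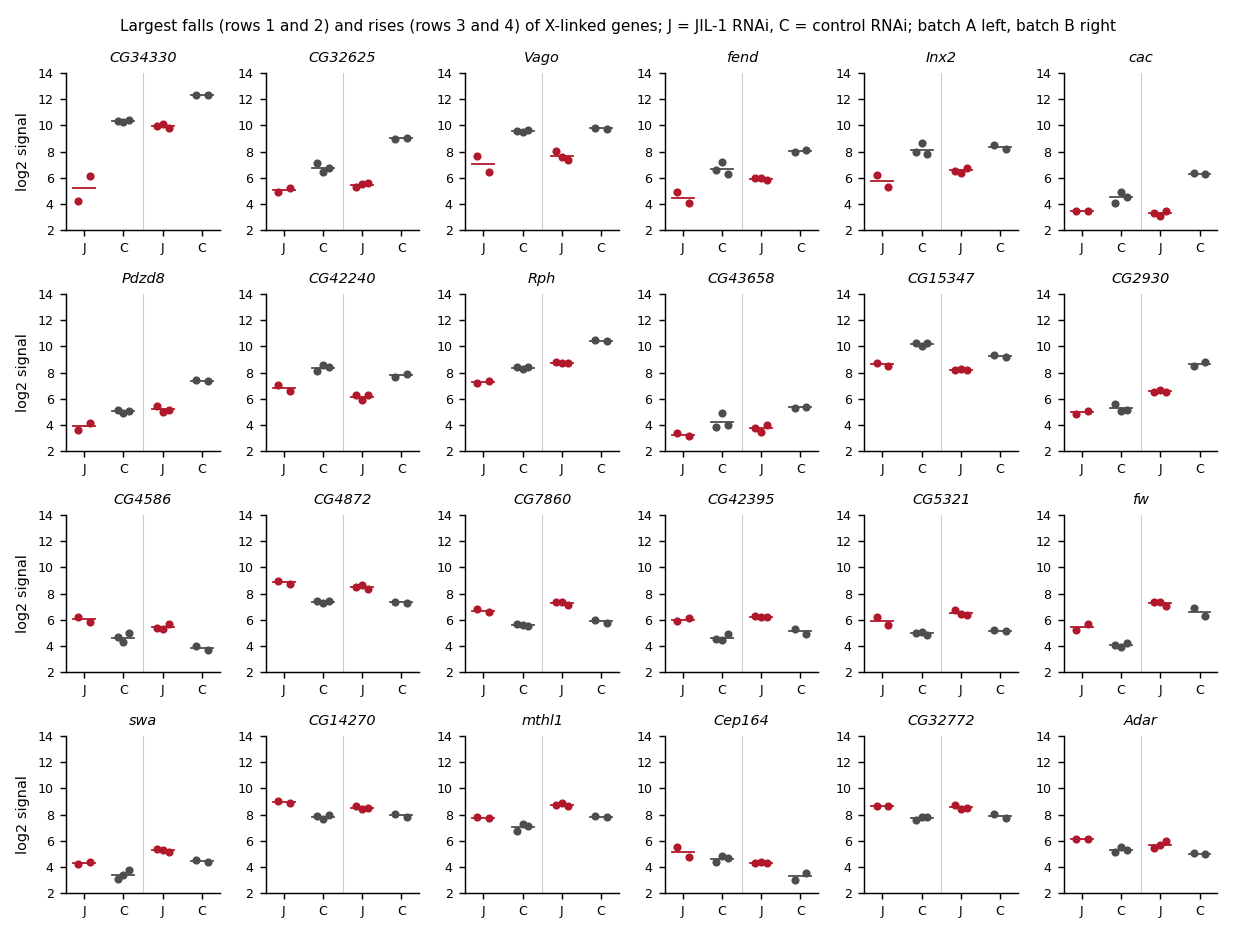
Each panel is 1 gene, with the log2 signal of every sample (points) and the group mean (line), JIL-1 RNAi (red, J) left of control RNAi (grey, C) within each batch. In 22 of these 24 genes no JIL-1 RNAi value overlaps a control value of its batch (18.2% of all rows were apart as higher and 13.4% as lower), which the choice of the largest changes favours; CG2930 and Cep164 overlap in batch A.

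The largest changes of each segment included several genes outside those lists. In segment 10 et (eye transformer, a receptor that dampens JAK/STAT signalling) had log2 signals of 9.311 and 9.104 after JIL-1 RNAi against 10.165, 10.033 and 10.151 in controls of batch A, and 8.545, 8.431 and 8.398 against 9.444 and 9.335 in batch B. Its changes of -0.91 and -0.93 in the batches were close, and -0.92 over both (SE 0.06, limma adjusted p = 3.3e-06). et overlaps Zw. CG5254 led the falls of segment 1 with -0.95, and CG32579 those of segment 8 with -1.08. Ogg1, a glycosylase that removes oxidised guanine from DNA, led the rises of segment 4 with 0.54, and baz, the Par-3 protein of cell polarity, those of segment 9 with 0.63.

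The change differed between batches for few X-linked genes. By the test of the difference, 2 were higher in batch B than in batch A and 7 lower (limma adjusted p under 0.05), where 0.684% and 0.699% of all rows passed. Among the 7 were cac, CG32625 and Rph, described above. CG2930 had log2 signals of 4.821 and 5.085 after JIL-1 RNAi against 5.557, 5.057 and 5.126 in controls of batch A, and 6.522, 6.648 and 6.530 against 8.467 and 8.809 in batch B. The groups overlapped in batch A and were apart in batch B, and the difference of the changes was -1.78 (limma adjusted p = 0.00579). Its probe set may cross-hybridise, and CG2930 overlaps yin, a peptide transporter gene.

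AlkB, a demethylase family member, and CG15027, both named after their values were seen, and CR14798 rose in batch A, by 0.71, 0.69 and 0.66, and changed by -0.06, -0.01 and -0.01 in batch B. CR14798 had signals of 5.884 and 5.596 after JIL-1 RNAi against 5.084, 4.992 and 5.155 in controls of batch A, and 5.082 in all 3 JIL-1 RNAi samples against 5.099 and 5.087 in batch B. Over both batches ATPsyndelta and CR14798 missed the threshold (limma adjusted p = 0.0674 and 0.0606). ATPsyndelta passed it without control replicate 1 or JIL-1 RNAi replicate 2 and with array weights (0.0441, 0.0394 and 0.00894). CR14798 passed it without control replicate 4 or 5, with a common median and with quantile normalization (0.0421, 0.0467, 0.0489 and 0.00977). ATPsyndelta, a subunit of the ATP synthase, had 12.912 and 12.855 against 13.024, 12.841 and 12.902 in batch A and 12.005, 11.847 and 11.811 against 11.203 and 11.085 in batch B. It overlapped its controls in batch A and rose in batch B, with a difference of 0.78 (limma adjusted p = 0.0144). DAAM, a formin of the actin cytoskeleton, had 7.740 and 8.095 against 8.482, 8.427 and 8.708 in batch A and 8.106, 8.084 and 8.082 against 7.790 and 7.886 in batch B. It fell by 0.62 on the log2 scale in batch A and changed by 0.25 in batch B, with a difference of 0.87 (limma adjusted p = 0.0404). CG34331 and CG17068 had differences of 1.15 and 0.38 that did not pass (adjusted p = 0.0838 and 0.0843).

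**Figure D5:**
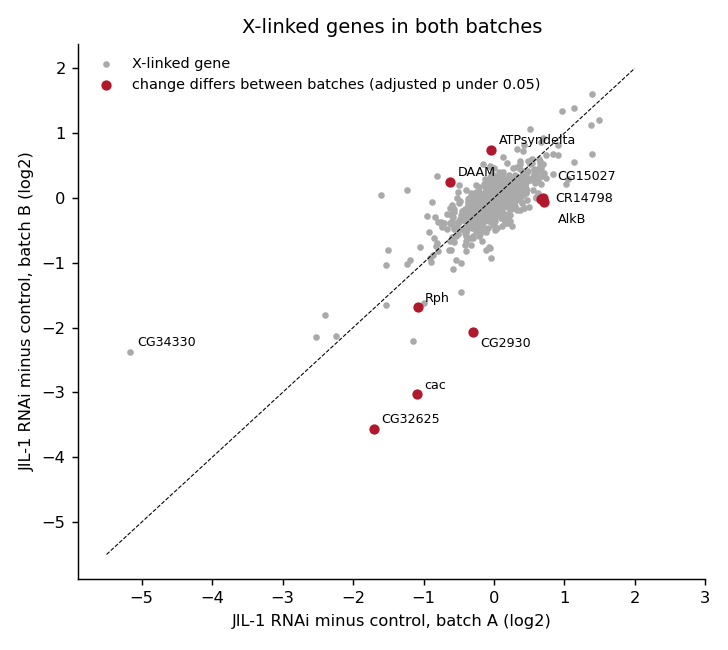
Each point is 1 X-linked gene, with its log2 change in batch A on the horizontal axis and in batch B on the vertical axis, and the dashed line marks equal changes. The 9 genes whose changes differed between batches (red) include cac and CG32625 far below the line and ATPsyndelta and DAAM above it, whereas CG34330, with -5.17 and -2.37, did not pass that test.

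Lists of X-linked genes by function are set here beside all rows tested, of which 20.8% rose and 14.9% fell, with a median of 0.0473. Of the X itself 13.8% rose and 19.8% fell, with a median of -0.0489. Of 25 tested chromatin and dosage compensation genes of the X, 3 rose and 2 fell, shares below both of those, with a median of 0.0118. Set2, a methyltransferase of histone H3, had log2 signals of 9.329 and 9.328 after JIL-1 RNAi against 8.922, 9.071 and 9.164 in controls of batch A, and 9.412, 9.341 and 9.247 against 9.198 and 9.070 in batch B. It changed by 0.24 (limma adjusted p = 0.0141), with Usp7, a ubiquitin protease, and wapl, a cohesin release factor, as the other rises. Top1, topoisomerase I, and e(y)3 changed by -0.22 and -0.46. Of these, wapl missed the threshold without any 1 of control replicates 2, 3, 4 and 5 or JIL-1 RNAi replicates 1, 2 and 5 (limma adjusted p between 0.0501 and 0.0786), and also under other scalings. Top1 missed it without any 1 of control replicates 1, 3 and 4 or JIL-1 RNAi replicates 1, 3 and 4 (0.0598 to 0.116), and e(y)3 without any 1 of JIL-1 RNAi replicates 2 and 3 or control replicates 4 and 5 (0.0512 to 0.0951).

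In signalling 5 of 18 tested genes rose and 4 fell, 27.8% and 22.2% against 20.8% and 14.9% of all rows, with a median of 0.0259. On 18 genes these shares are near those of all rows. Beside Inx2 these included baz, with signals of 7.031 and 6.876 after JIL-1 RNAi against 6.445, 6.553 and 6.576 in controls of batch A, and 8.311, 8.429 and 8.275 against 7.390 and 7.643 in batch B. baz changed by 0.63 (limma adjusted p = 0.000578), raskol, a Ras GTPase activator, by 0.55, and par-6, a partner of Par-3 in the same polarity complex, by -0.23. A second probe set of hep, counted among the rises, had the opposite sign.

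Of 10 metabolism genes 2 rose and 2 fell, near the 20.8% and 14.9% of all rows, with a median of -0.054. r (rudimentary), which starts pyrimidine synthesis, had log2 signals of 8.596 and 8.766 after JIL-1 RNAi against 8.281, 8.242 and 8.268 in controls of batch A, and 8.551, 8.604 and 8.606 against 7.800 and 7.919 in batch B. The groups were apart in both batches, and the change was 0.57 (SE 0.07, limma adjusted p = 0.00022). GIIIspla2, a phospholipase A2, changed by 0.40. Idh3a, of the citric acid cycle, and UQCR-14, of respiratory complex III, changed by -0.31 and -0.18. Idh3a missed the threshold without JIL-1 RNAi replicate 2 or control replicate 4 (limma adjusted p = 0.0758 and 0.0661), and UQCR-14 without JIL-1 RNAi replicate 2 (0.052).

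Of 17 cell cycle and replication genes 0 rose by limma (2 at an unadjusted p under 0.05) and 1 fell. Mcm6, of the replicative helicase, changed by -0.21 (limma adjusted p = 0.00987). Of 9 chaperone and proteasome genes 0 rose by limma (0 at an unadjusted p under 0.05) and 1 fell, Rpt3, an ATPase of the proteasome, which changed by -0.28 (limma adjusted p = 0.00645). All 9 had a change below 0, as had 58.3% of the X, and ran from -0.28 to -0.01 with a median of -0.0781. Of 8 immune and blood cell genes dome, the JAK/STAT receptor, rose by 0.23 and Dredd, a caspase of the Imd pathway, fell by 0.19 on the log2 scale. Without any 1 of JIL-1 RNAi replicates 1, 2, 4 and 5 or control replicate 4 both missed the threshold, and Dredd also without control replicate 5 (limma adjusted p between 0.0522 and 0.0981). Of 7 transcription genes and 3 ribosomal protein genes 0 passed by limma in either direction, also at an unadjusted p under 0.05, with medians of -0.0263 and -0.0782. The 3 ribosomal protein genes, RpL17, RpL37-1 and RpS28b, changed by -0.10 to -0.05, and in a fit with a variance trend RpL37-1 and RpS28b passed (adjusted p = 0.0494 and 0.0285).

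Genes for the dosage compensation complex lie on several arms. The list examined was wider than the complex itself. Its 8 tested genes were msl-1, msl-2, msl-3, mle, mof, Clamp, MTF-1 and JIL-1, the target of the RNAi. Of these 8, 5 rose and 1, JIL-1 itself, fell, where 20.8% and 14.9% of all rows did. msl-2, whose protein is limiting for the complex in males, had log2 signals of 8.477 and 8.983 after JIL-1 RNAi against 8.125, 8.250 and 8.404 in controls of batch A, and 9.751, 9.977 and 9.829 against 9.242 and 9.315 in batch B. Each JIL-1 RNAi sample was above its controls, with a change of 0.52 (SE 0.099, limma adjusted p = 0.0029). msl-3 and mle changed by 0.34 and 0.27, and msl-1 and Clamp rose too. msl-3 missed the threshold when JIL-1 RNAi replicate 2 (limma adjusted p = 0.0574), control replicate 4 (0.0516) or control replicate 5 (0.0513) was left out. mof, the acetyltransferase of the complex, is X-linked and did not pass.

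Agreement of probe sets limits how far single genes can be read. A second probe set above 4 was present for 55 X-linked genes, and in 38 of them all probe sets had the same sign. Among 17 such genes that passed, 12 had the same sign throughout, and CG18273, br, trol, hep and su(f) had a probe set of opposite sign. Probe sets of 229 X-linked genes had the suffix a, s or x, which marks a match to several transcripts. The suffix a stands for transcripts of the same gene, so fewer than 229 may cross-hybridise with other genes.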

How the data were processed

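Deposited values were log2 signals, 1 per probe set and array, which the authors made with GCRMA per the submitters' processing notes. GCRMA corrects for background by probe sequence, normalises arrays to each other and gives 1 value per probe set. Neither a version nor the handling of the batches in that step is stated here. The values ran from 2.2 to 15.7, which set the log2 scale, with 50.5% to 51.8% of each array within 0.01 of the low end, so dim genes have compressed changes. The number of arrays limits the precision: 8 pairs of arrays of the same treatment and batch differed with an SD of 0.155 to 0.264 over the tested rows.

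Names of probe sets came from the platform annotation, and symbols, arms and gene order came from a RefSeq gene table (Release 6); 21 genes listed on both X and Y were left out. No genome build of the arrays is stated, so no coordinate is given. Each gene was represented by its brightest probe set (mean of 10 arrays), kept if that mean exceeded 4. limma 3.58.1 in R 4.3.3 was fitted to all 6721 rows with group and batch as terms, and with 4 means of group and batch for the changes within a batch and their difference; p-values were Benjamini-Hochberg adjusted over all rows, with a threshold of 0.05. Values under 4 were raised to 4 for bounds. Tested on simulated data of 6721 rows, the fit over both batches recovered 15, 40, 47 and 50 of 50 changes of 0.25, 0.5, 1 and 2 on the log2 scale, with 7 false among 159 calls. The test of the difference between batches recovered 2, 11, 40 and 50 of 50, with 10 false among 113.

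Genes were named as the 12 largest rises and falls of one sign in both batches, the 5 largest each way in either batch, the 5 smallest adjusted p each way for the difference, the largest change each way per segment, and up to 4 passing members per list (2 by smallest p where none passed); others are said to be chosen after their values were seen. The members, lists and rules were chosen with earlier results of these data known. Alternatives covered the filter, scaling, variance model, probe set choice, batch and replicate terms, call rules, the cut of segments and level classes, and leaving out each sample. Deviations of samples with the same replicate number had an r between -0.295 and 0.24 for 5 numbers, and number 3 spans both batches. With 2 or 3 arrays per group of a batch, this cannot exclude a pairing. The numbers were not used as pairs in the main fit. Either of 2 extraction methods was used per the labels, and which sample had which is not given. P-values measure only the spread between these cultures.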

Additional observations from a re-analysis of the deposited data

Results flagged for a closer look

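In 5 of 144 groups of 5 samples examined, each over the named genes and the segments and level classes of the X, 1 sample lay far from the others (values relative to the controls of the batch for segments). Chance alone would give about 1 in 20, or 7.2 groups, if the 5 samples of a group were drawn alike. The gene signals came from both batches, which can differ in level, so that number need not hold here. For e(y)3 the JIL-1 RNAi replicate 2 sample had 9.02, below the range of 9.598 to 9.682 of the other 4, and for r the same sample had 8.766, above 8.551 to 8.606. cac had 3.063 in JIL-1 RNAi replicate 4, below 3.323 to 3.417, all under the level minimum of 4. DAAM had 7.740 in JIL-1 RNAi replicate 1, below 8.082 to 8.106. The median change of X segment 6 was -0.0593 in JIL-1 RNAi replicate 5, below -0.0015 to 0.017 in the others.

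Changes of 7 named genes differed between batches by the limma test of the difference (adjusted p under 0.05, where 0.684% of all rows passed as higher and 0.699% as lower in batch B). The batch B change minus the batch A change was -1.94 for cac, -1.85 for CG32625, -1.78 for CG2930, -0.67 for CR14798 and -0.60 for Rph, and 0.78 for ATPsyndelta and 0.87 for DAAM. The batches also used different targeting sequences for JIL-1 and for the control, which cannot be told apart from batch.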

How the results depend on the processing

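No named gene changed its direction under any alternative that was run, but some balances of calls turned. Under a minimum of 1.5-fold the lowest level class had 16 rises and 20 falls. Falls were then 20, 10 and 5 from the lowest to the highest class. With a common median of the large autosomes the lowest class had 56 rises and 57 falls. Without control replicate 3, 116 X-linked genes rose and 113 fell in batch A. Some medians, which carry no call, turned their sign. These were the medians of the X in batch A (0.0087 without control replicate 3) and of the lowest level class (up to 0.0299, without a term for batch). Those of segment 6 (down to -0.0268) and of segment 10 (0.0516 with segments of equal length) turned too. Under a minimum of 1.5-fold, 21 X-linked genes rose and 35 fell (31 and 46 for batch A, 20 and 40 for batch B). Without a term for batch 22 rose and 41 fell, and the highest minus the lowest level class was -0.122 (-0.0691 with the term). With no filter on level 75 rose and 127 fell (61 and 75 for batch A, 32 and 69 for batch B, with 0 higher in the difference between batches), and the X median and its gap to the autosomes were 0.0 and 0.0, since most rows then sit at the low end of the scale. With the replicate number as a replicate block, which the labels do not tie to a shared day or batch, 61 rose and 98 fell. At an adjusted p under 0.1, 82 rose in batch B, and 6 and 16 differed as higher and lower between batches. Quantile normalization gave 89 rises in batch B and 4 higher in the difference. A common median of the large autosomes gave 191 falls in batch A. Each batch fitted alone gave 64 rises and 69 falls in batch A. Without probe sets of the suffix a, s or x the gap was -0.1372 and 1 gene was higher in the difference.

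Leaving out 1 sample in turn gave 91 to 121 rises and 144 to 211 falls, with 65 to 116 rises and 72 to 129 falls for batch A alone, 17 to 61 rises and 50 to 143 falls for batch B alone, and 0 to 5 higher and 1 to 9 lower in the difference. The X median then ran from -0.0574 to -0.0362, the gap from -0.1201 to -0.1043, and the highest minus the lowest level class from -0.0923 to -0.0545. Where 1 sample was left in a group of a batch, it was assumed to vary like the others. All 10 X segments stayed below the autosomal median in each of these fits. Of the single named genes, 93 results missed the threshold and 10 came to pass it under some alternative, many of them in the fit without a term for batch, in which JIL-1 itself had an adjusted p of 0.153 (limma). Changes within a batch could not be had without a batch term, with batch as a random block or with the replicate block, and were not run with a variance trend or array weights. Dim signals limit what can be read from the 883 X-linked genes that did not exceed the minimum. Why these values moved was not tested, apart from the smaller set of samples or calls that an alternative allows by its construction.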
